A study of Homo sapiens with 6 samples.

Results

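The HOX cluster genes are the 39 protein-coding genes whose symbol is HOXA, HOXB, HOXC or HOXD followed by a number. All 39 were present among the 60504 genes of the count table, of which 19664 are protein-coding. They were picked by symbol and not by a measured value, although the choice was made with earlier results of these data known. RNA was sequenced from SK-MEL-28, an established human melanoma cell line, in 3 libraries labelled EV (cells given the empty plasmid) and 3 libraries labelled HDAC8 (cells given a plasmid that expresses the histone deacetylase HDAC8). According to the Methods, both populations were transfected and then kept in hygromycin, and the text does not say whether each was a single clone. Nothing in the labels says that the 3 libraries of a group came from separate cultures, so p-values measure the spread between these libraries, which may be technical.

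HOX proteins are transcription factors that bind DNA through a homeodomain and, with PBX and MEIS family partners, set the identity of body regions along the head-to-tail axis. The human genes lie in 4 clusters. In GENCODE 44 on GRCh38, the 11 HOXA genes span chromosome 7 from 27092993 to 27200091 and the 10 HOXB genes chromosome 17 from 48528526 to 48728750, both on the minus strand. The 9 HOXC genes span chromosome 12 from 53938831 to 54056030 and the 9 HOXD genes chromosome 2 from 176092721 to 176190907, both on the plus strand. In general, the order of genes along a cluster follows the order of their expression domains, so that low-numbered paralog groups act toward the head and high-numbered groups toward the tail. Cells kept in culture often retain a HOX pattern that reflects their origin. Here paralog groups 1 to 3 are called anterior, 4 to 8 central and 9 to 13 posterior.

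The libraries held between 20850021 and 29822903 counts, and a floor of 3 counts was worth 0.102 to 0.148 CPM, the depth-scaled count used throughout. These floors cover counting error only. The introduced gene HDAC8 averaged 14.5 ± 2.48 CPM under the EV label and 14.3 ± 0.881 CPM under the HDAC8 label (SD, n = 3 each; edgeR adjusted p = 0.924). It therefore did not separate the groups, and every direction below compares the libraries by their labels alone. Melanocyte lineage markers summed to between 6376 and 6761 CPM in the EV libraries and to between 7412 and 7937 CPM in the HDAC8 libraries. PMEL was the main contributor to both sums, with means of 4149 and 5254 CPM. None of these 7 genes was at 0 in every library, and 4 had positive and 3 negative fitted values. TYRP1, a pigment enzyme, was called higher on 5 to 46 counts per library. DCT, another, was called lower, from 233 ± 10.7 to 68.3 ± 2.07 CPM (SD, n = 3 each). The 7 fibroblast markers summed to between 38.9 and 40.9 CPM and to between 51.9 and 56.1 CPM, with LUM as the main contributor, COL1A2, COL3A1 and DCN near 0 and TWIST2 at 0 in every library. The 6 keratinocyte markers summed to between 8.36 and 10.3 CPM and to between 6.29 and 8.83 CPM. KRT10 was the main contributor to both sums, with KRT5, KRT14, CDH1 and TP63 near 0 and KRT1 at 0 in every library. Neither the fibroblast nor the keratinocyte list held a called gene. The part of these markers in the results below was not tested.

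The clearest change was at HOXA11 (ENSG00000005073), a posterior gene best known for patterning the limb and the reproductive tract. It lies on the minus strand of chromosome 7 within the HOXA cluster, next to its antisense RNA gene HOXA11-AS. The starts that RefSeq gives for the gene and for its antisense RNA are 176 bases apart and point away from each other. GENCODE 44 gives the same HOXA11 start at 27185232 but begins the HOXA11-AS gene at 27184507, inside HOXA11, so by that annotation the genes overlap. The 250 bases upstream of the HOXA11 start are shown because they hold the RefSeq start of HOXA11-AS, in the direction of HOXA11, at chr7:27185233-27185482 on the minus strand of GRCh38.p14 (RefSeq), with the bases between the 2 RefSeq starts in capitals.

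HOXA11 upstream: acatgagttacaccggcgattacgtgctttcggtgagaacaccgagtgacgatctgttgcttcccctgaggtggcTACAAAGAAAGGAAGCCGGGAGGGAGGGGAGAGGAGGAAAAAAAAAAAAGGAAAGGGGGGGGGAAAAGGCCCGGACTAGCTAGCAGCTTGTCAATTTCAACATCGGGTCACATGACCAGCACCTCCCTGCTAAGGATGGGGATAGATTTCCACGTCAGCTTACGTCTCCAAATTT

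HOXA11 was at 2.09, 2.49 and 1.47 CPM in the 3 EV libraries and at 7.98, 7.45 and 7.85 CPM in the 3 HDAC8 libraries. Every HDAC8 library lay above every EV library, and the HDAC8 values were close together. The log2 fold change was 1.95 (SE 0.219), a 3.86-fold difference, with an edgeR adjusted p of 5.52e-05. Adjusted p-values are from quasi-likelihood fits in edgeR, Benjamini-Hochberg adjusted across the genes tested in each fit, which were 16195 with all libraries, 16676 to 16953 with 1 library left out and 30137 with no filter on low counts. HOXA11-AS, an RNA transcribed from the opposite strand, moved the same way. Its level was 0.139, 0.361 and 0.529 CPM in the EV libraries and 1.32, 1.63 and 2.63 CPM in the HDAC8 libraries, with no overlap. Its log2 fold change was 2.40 (SE 0.509, edgeR adjusted p = 0.00505). In GENCODE 44 the 2 genes share 726 bases of exon on opposite strands, and the sources used here do not state whether reads were counted by strand, so reads from the shared part of HOXA11 and HOXA11-AS cannot be told apart. The counts behind HOXA11-AS were low, at 3 to 13 per EV library and 33 to 61 per HDAC8 library.

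HOXC8, a central gene of the HOXC cluster that patterns the thoracic region, was the other member past both thresholds, namely an adjusted p under 0.05 together with a log2 fold change of 0.58 or more in either direction. It was at 1.67, 1.13 and 1.34 CPM in the EV libraries and at 2.65, 2.86 and 2.80 CPM in the HDAC8 libraries, again without overlap. Its log2 fold change was 1.00 (SE 0.288, edgeR adjusted p = 0.0263). The call was lost without EV replicate 2, without EV replicate 3 and without HDAC8 replicate 2, with adjusted p = 0.0838, 0.0819 and 0.0765 from edgeR, and also in the fit blocked by replicate number, with adjusted p = 0.0600 from edgeR, whereas HOXA11 was called in each of the 11 alternative fits.

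**Figure D1:**
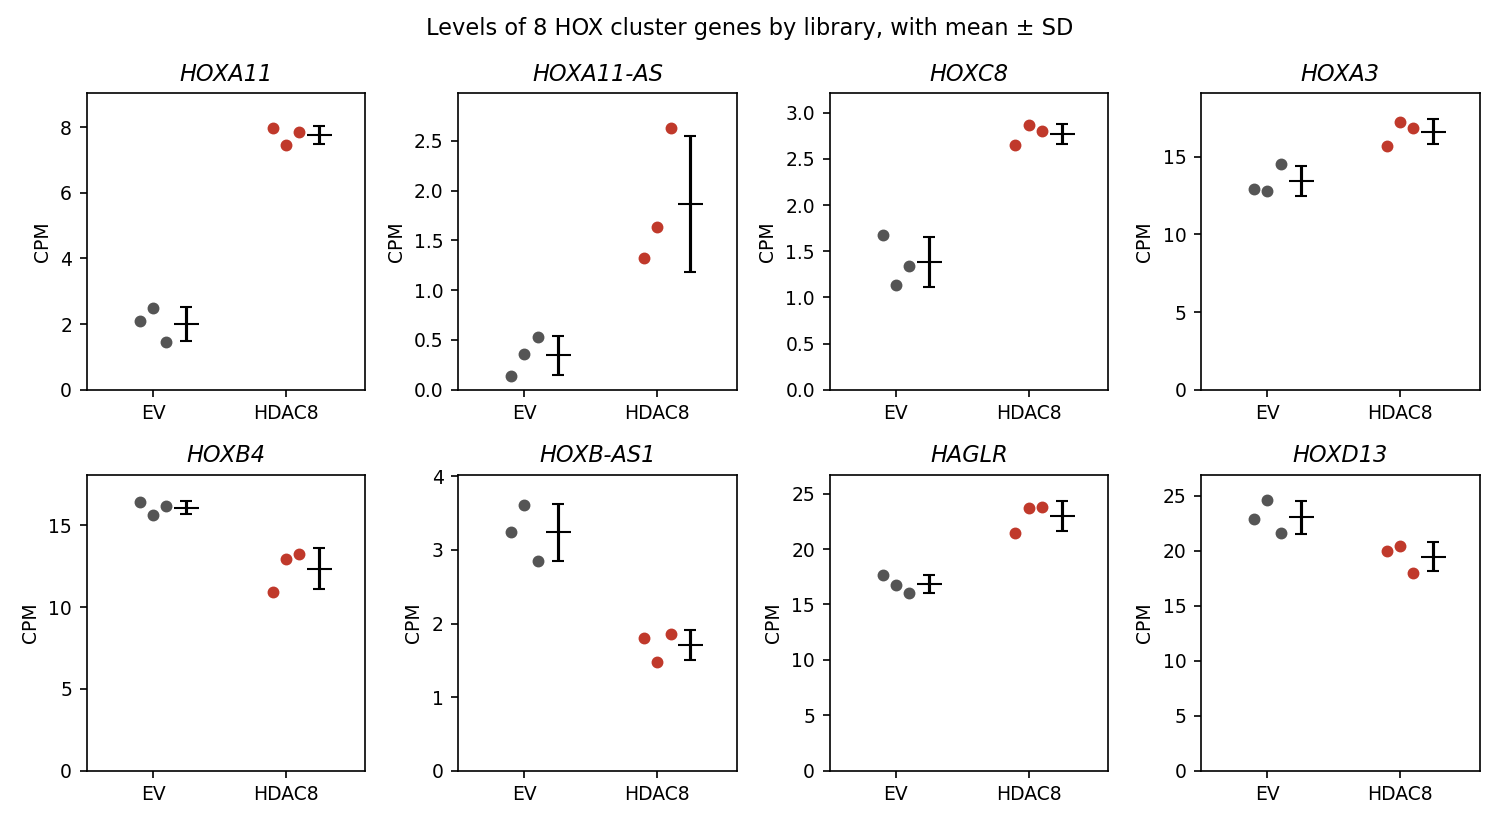
CPM (y axis, from 0) in each library labelled EV or HDAC8 for 8 genes of the HOX clusters, with the mean and SD beside the points. HOXA11 goes from a mean of 2.01 to 7.76 CPM, and the other panels show the values of HOXC8, HOXA3, HOXB4 and HOXD13 and of 3 noncoding RNAs.

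Of the 29 members with enough counts to be tested, 2 were called higher (6.90%) and 0 lower (0%) at both thresholds, with 2 lower at an unadjusted p under 0.05. Over all tested genes, 4.07% were called higher and 3.45% lower. Without the fold threshold, 3 members were higher (HOXA11, HOXC8 and HOXA3; 10.3%) and 1 was lower (HOXB4; 3.45%), beside 11.1% and 11.7% of all tested genes. DESeq2 also called 2 members higher and 0 lower at both thresholds. The groups did not overlap for 5 members that were higher (HOXA3, HOXA11, HOXC8 and HOXC9 among them; 17.2%) and 2 that were lower (HOXB4 and HOXD13; 6.90%), against 18.7% and 19.4% of all tested genes. The shares of members that were higher lay near those of all tested genes, and the shares that were lower lay below them; neither difference was tested. Their median log2 fold change was 0.22, beside 0.0091 over all tested genes, with 19 members above 0 and 10 below.

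**Figure D2:**
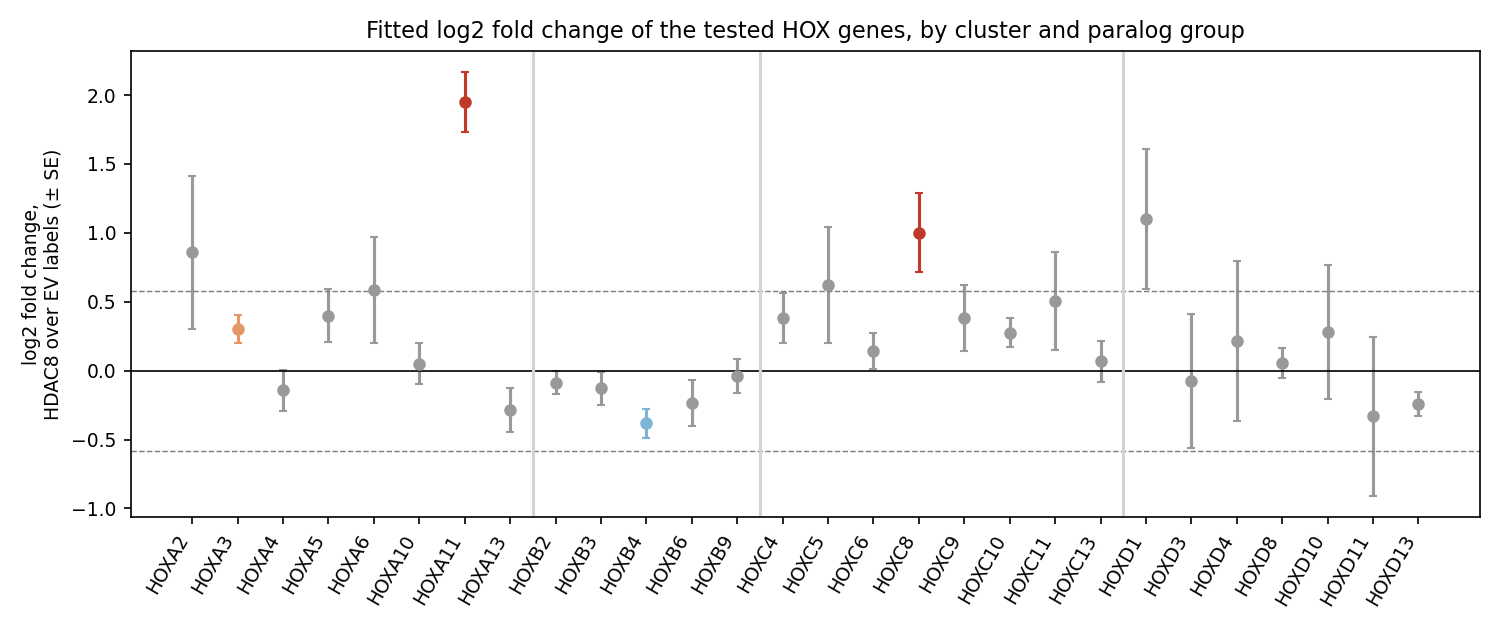
Fitted log2 fold change (y axis, HDAC8 over EV labels, bars are standard errors) of 28 of the 29 tested members, ordered by cluster and paralog group, with dashed lines at 0.58 and -0.58. Red marks members past both thresholds, and the lighter orange and blue mark HOXA3 and HOXB4, which passed the adjusted p alone, and HOXA11 stands apart at 1.95.

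The clusters differed in the sign of their fitted values. Under TMM, upper-quartile and DESeq2 scaling alike, the signs within HOXB and HOXC were uniform, although HOXB9 turned positive (0.039) without HDAC8 replicate 1. In HOXB, each of the 5 tested genes had a negative log2 fold change, from -0.38 to -0.040 with a median of -0.13. In HOXC, each of the 8 tested genes had a positive one, from 0.067 to 1.00 with a median of 0.38. HOXA had 7 positive and 2 negative values (median 0.40), and HOXD had 4 positive and 3 negative (median 0.054). No test was run on the difference between clusters, and genes of a cluster share exons and neighbours, so they are not independent. By position, the medians were 0.30 for the 7 tested anterior, 0.22 for the 11 central and 0.067 for the 11 posterior genes.

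Summed over each cluster, the HOXA genes held 50.4, 50.7 and 53.9 CPM in the EV libraries and 62.7, 65.6 and 64.5 CPM in the HDAC8 libraries, a ratio of means of 1.24. Without HOXA11 the HOXA ratio was 1.14, and the groups still did not overlap. The HOXC genes summed to 48.7, 50.4 and 50.5 CPM and to 61.5, 66.8 and 55.1 CPM, a ratio of 1.23. The HOXB sum was lower, at 81.1, 85.6 and 86.5 CPM in the EV libraries and 69.3, 80.2 and 79.3 CPM in the HDAC8 libraries, a ratio of 0.904. The HOXD sums overlapped between the groups, at 38.1 ± 2.36 and 35.8 ± 2.54 CPM (SD, n = 3 each). Across all 39 genes the sum was 224 ± 5.16 CPM and 238 ± 11.1 CPM (SD, n = 3 each), a ratio of 1.06.

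**Figure D3:**
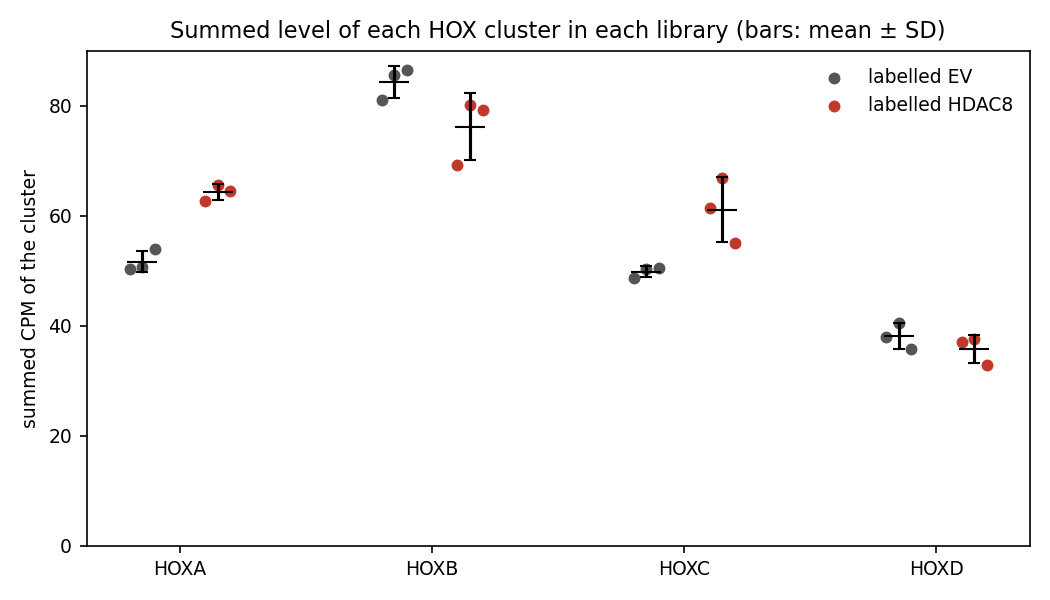
Summed CPM of the members of each cluster (y axis, from 0) in each library, with mean and SD. Every HDAC8 library lies above every EV library for HOXA and HOXC and below for HOXB, while the HOXD values overlap.

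Within HOXA, HOXA3, which acts in the hindbrain and in organs of the throat, was at 12.95, 12.8 and 14.6 CPM in the EV libraries and at 15.7, 17.3 and 16.9 CPM in the HDAC8 libraries. The log2 fold change of HOXA3 was 0.30 (edgeR adjusted p = 0.0472), and it stayed below an adjusted p of 0.05 in 1 of the 11 alternatives. HOXA13, the most posterior gene of the cluster, and HOXA4 had negative fitted values of -0.29 and -0.14 that did not pass the test. HOXA10, which lies next to HOXA11, was at 7.53 ± 0.636 and 7.79 ± 0.838 CPM (SD, n = 3 each), with a log2 fold change of 0.050.

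In HOXC, HOXC10, the most abundant gene of the cluster and a posterior gene of the lumbar region, averaged 21.1 ± 0.844 CPM (SD, n = 3) in the EV libraries and was at 27.03, 28.2 and 21.2 CPM in the HDAC8 libraries. HDAC8 replicate 3 overlapped the EV range, and the log2 fold change of 0.27 missed the threshold (edgeR adjusted p = 0.0884). Without that library the edgeR adjusted p was 0.00562, at a log2 fold change of 0.38. HOXC10 also passed the adjusted p alone with no filter on low counts (edgeR adjusted p = 0.0477). HOXC4 passed it in 1 alternative, without HDAC8 replicate 3 (edgeR adjusted p = 0.0332). HOXC9, next to HOXC8, did not overlap between groups (2.61 ± 0.277 and 3.41 ± 0.422 CPM, SD, n = 3 each) but did not pass the test (edgeR adjusted p = 0.294). HOXC4 and HOXC6 share 484 exon bases on the same strand, so their reads may have been split between them.

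In HOXB, HOXB4, a gene known for its role in blood stem cells, was at 16.4, 15.6 and 16.2 CPM in the EV libraries and at 10.9, 12.9 and 13.2 CPM in the HDAC8 libraries. It fell by 0.38 on the log2 scale (edgeR adjusted p = 0.0219), below the fold threshold, and the adjusted p rose above 0.05 without EV replicate 1, EV replicate 3 or HDAC8 replicate 1. The antisense RNA HOXB-AS1 was at 3.25, 3.61 and 2.85 CPM and at 1.80, 1.48 and 1.85 CPM, with a log2 fold change of -0.91 (edgeR adjusted p = 0.0273), and was called in 7 of 11 alternatives. The call was lost without EV replicate 1, EV replicate 2 or HDAC8 replicate 2 and in the fit blocked by replicate number, at edgeR adjusted p = 0.0801, 0.0901, 0.0794 and 0.0659. HOXB-AS1 shares 87 and 374 exon bases on the opposite strand with HOXB2 and HOXB3, which had log2 fold changes of -0.087 and -0.13.

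In HOXD, HOXD13, the most posterior gene of the cluster and a regulator of digit formation, was at 22.9, 24.6 and 21.7 CPM in the EV libraries and at 19.96, 20.5 and 17.98 CPM in the HDAC8 libraries. The groups did not overlap, but its log2 fold change of -0.24 missed the threshold (edgeR adjusted p = 0.0729). HAGLR, an antisense RNA of the anterior end of the cluster, was higher, at 17.6, 16.8 and 16.03 CPM against 21.5, 23.7 and 23.8 CPM, with a log2 fold change of 0.45 (edgeR adjusted p = 0.00279). HAGLR shares 145 and 138 exon bases on the opposite strand with HOXD1 and HOXD3. HOXD1 had a log2 fold change of 1.10 that did not pass (edgeR adjusted p = 0.154), on 6 to 33 counts per library. HOXD3 had one of -0.074 (edgeR adjusted p = 0.937), on 9 to 24 counts per library.

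Levels of different genes were compared per kilobase of exon in GENCODE 44. In the EV libraries HOXB2 was the most abundant member, at 12.8 ± 0.631 CPM per kilobase (SD, n = 3), followed by HOXD13 at 9.54 ± 0.618, HOXC10 at 8.89 ± 0.356 and HOXB4 at 8.04 ± 0.206. The spreads of HOXD13 and HOXC10 overlapped. In the HDAC8 libraries HOXC10 (10.8 ± 1.57) and HOXB2 (12.1 ± 1.18) had overlapping spreads. The 3 most abundant genes of HOXA in the EV libraries were HOXA4 (4.56 ± 0.534), HOXA5 (3.49 ± 0.689) and HOXA3 (3.12 ± 0.225), and each overlapped in spread with the next in this order. HOXB9 (4.23 ± 0.102) came next in HOXB, overlapping HOXB6 (4.06 ± 0.198), HOXC4 (2.93 ± 0.511) and HOXC13 (2.66 ± 0.136) overlapped behind HOXC10, and HOXD8 (4.35 ± 0.0570) and HOXD4 (0.696 ± 0.448) came after HOXD13, with HOXD4 overlapping HOXD10 (0.258 ± 0.125). On this scale HOXA11 rose from 0.754 ± 0.193 to 2.91 ± 0.103, from a level that overlapped HOXA6 (0.891 ± 0.273) to one above it (1.34 ± 0.422 for HOXA6 in the HDAC8 libraries), without overlap of the spreads. Active and near-silent genes lay side by side: HOXB2, HOXB3, HOXB4, HOXB6 and HOXB9 were tested, whereas HOXB5, HOXB7 and HOXB8, which lie among them, did not pass the filter.

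Of the 10 members that did not pass the filter, HOXB1 and HOXB13 had 0 counts in every library and were not detectable at this depth. HOXA7, HOXA9, HOXB5, HOXB7, HOXB8, HOXC12, HOXD9 and HOXD12 had between 0 and 20 counts per library. At the edge of the filter, HOXD11 was just inside, with 10, 7, 16, 9, 13 and 5 counts, and HOXD12 just outside, with 12, 5, 8, 10, 11 and 6 counts.

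**Figure D4:**
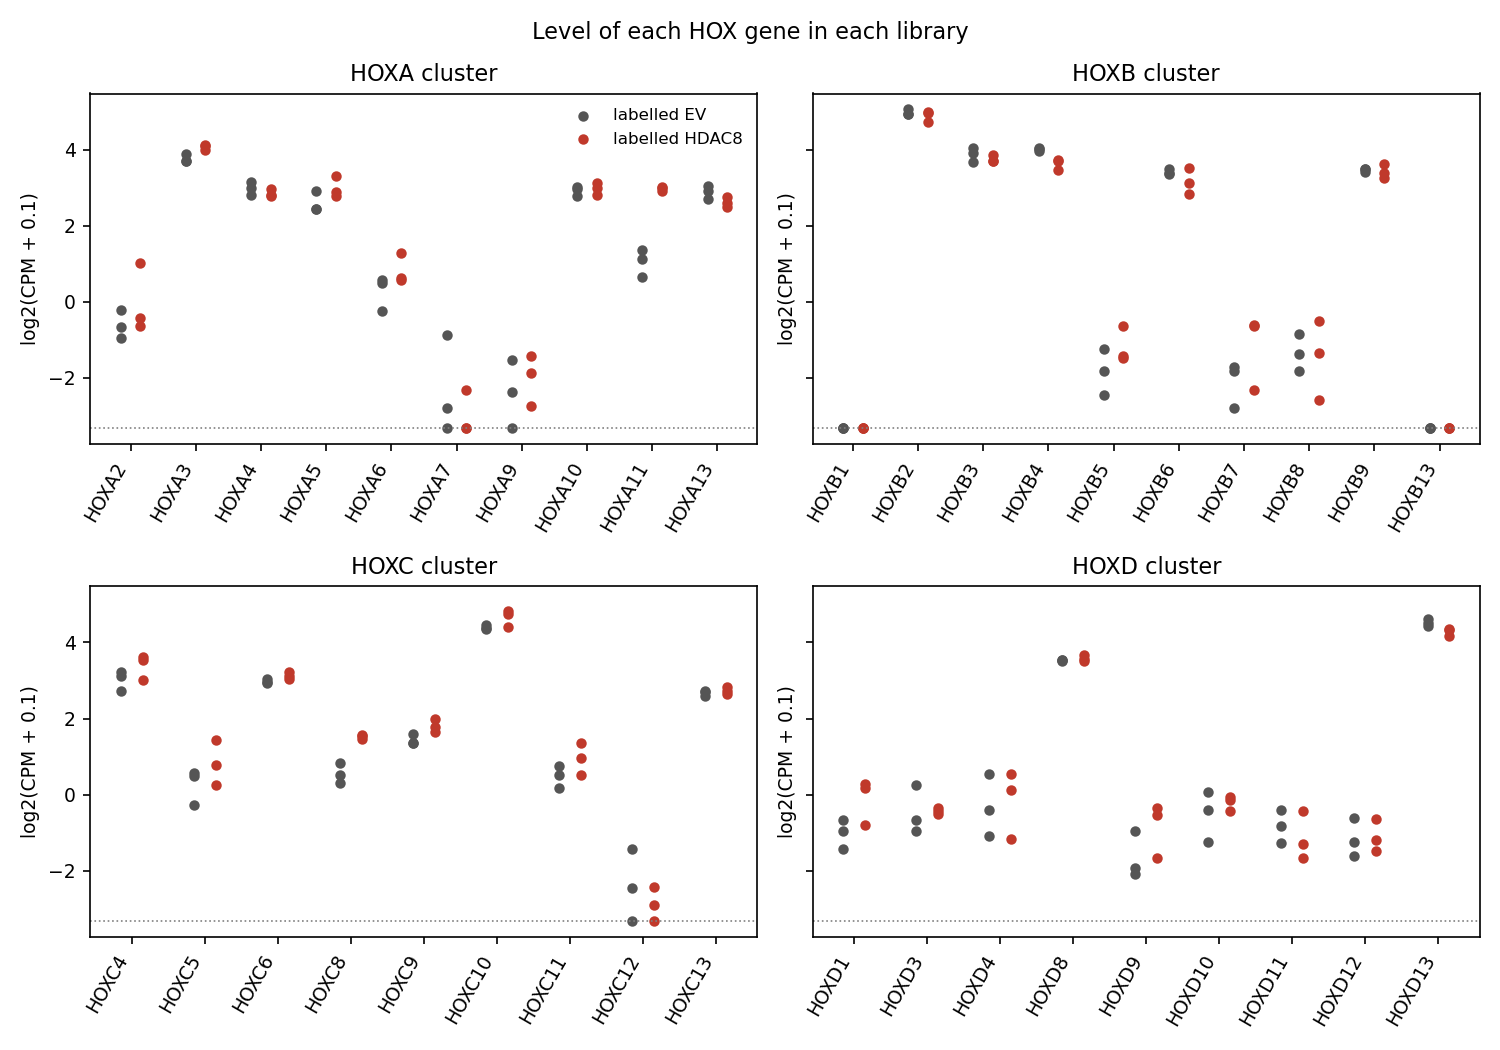
Level of 38 of the 39 members in each library as log2(CPM + 0.1), by cluster and in order of paralog group, with gray points for EV and red for HDAC8 labels and a dotted line at 0 counts. Expressed and near-silent genes lie side by side in each cluster, and HOXA11 has the largest fitted fold change of the tested members, 1.95 on the log2 scale.

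The nearest protein-coding genes outside the clusters were read for comparison, 5 on each side of each. Of these 40 genes, 35 were tested, with a median log2 fold change of 0.0013, and 1 was called at both thresholds, while 4 were higher and 3 lower by the adjusted p alone. The called gene was JAZF1, on the HOXA13 side of the HOXA cluster, which fell by 0.70 on the log2 scale (edgeR adjusted p = 0.000369). By cluster, the tested neighbours of HOXA, HOXB, HOXC and HOXD had medians of -0.032, -0.0090, 0.12 and 0.0013. EVX1 and EVX2, homeobox genes beside the HOXA and HOXD clusters, had 0 to 3 counts per library, and none of the 5 EVX and ParaHox genes listed was tested. Of the 24 cluster noncoding RNAs listed, 22 were in the table and 9 were tested, with 1 called higher (HOXA11-AS) and 1 lower (HOXB-AS1), and a median log2 fold change of 0.46.

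The proteins that work with or upstream of HOX genes were read from lists. Of the 9 HOX cofactors (median log2 fold change -0.12), none passed both edgeR thresholds and 3 had an unadjusted p under 0.05; MEIS3 and PKNOX2 fell by 0.34 and 0.32 on the log2 scale with edgeR adjusted p = 0.0471 and 0.0146. Of 18 genes of retinoid metabolism and signalling and CDX factors, inputs that set HOX expression in the embryo, 10 were tested (median 0.42) and 2 were called higher. ALDH1A3, which makes retinoic acid, rose from 129 ± 2.96 to 327 ± 8.15 CPM (SD, n = 3 each), and ALDH1A2, an enzyme of the same family, rose from 0.446 ± 0.217 to 1.81 ± 0.492 CPM. ALDH1A1, another enzyme of that family, was at 2.58 ± 0.300 and 1.30 ± 0.457 CPM, a difference that missed the threshold (edgeR adjusted p = 0.0534). The receptor genes RARG, RXRA and RXRG rose by log2 fold changes of 0.43, 0.42 and 0.20, below the fold threshold. Their edgeR adjusted p-values were 0.00190, 0.00149 and 0.0347. The receptor genes RARA and RXRB had log2 fold changes of -0.052 and -0.0017 and did not pass (edgeR adjusted p = 0.712 and 0.991).

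Polycomb proteins keep HOX genes silent, and MLL and menin complexes keep them active. The 11 genes of PRC2, the complex that methylates lysine 27 of histone H3, had a median log2 fold change of -0.045, and 1 was called higher: AEBP2, an accessory subunit, rose from 62.4 ± 1.69 to 132 ± 9.55 CPM (SD, n = 3 each). AEBP2 lies on chromosome 12 from 19404045 to 19720801. Around it, 20 tested genes were taken in order of start position, an equal number on each side. Of these, 12 were also called higher, and the median log2 fold change of the 20 was 1.05. These neighbours were read after the value of AEBP2 was seen. By the adjusted p alone 3 PRC2 genes were lower, PHF19, EED and RBBP4, with PHF19, a reader subunit, at a log2 fold change of -0.37 (edgeR adjusted p = 0.000600). EZH2, the catalytic subunit, had a log2 fold change of 0.052. The 12 PRC1 genes had a median of -0.13, and 1 was called lower: CBX6, a chromodomain subunit, fell by 0.59 on the log2 scale, and by 0.56 without EV replicate 1 and 0.55 without HDAC8 replicate 1, which is below the threshold. By the adjusted p alone 4 PRC1 genes were lower, CBX6 with PHC2, CBX7 and PHC3 at log2 fold changes of -0.48, -0.47 and -0.35, and 1 was higher, BMI1 at 0.39 (edgeR adjusted p = 7.64e-05, 0.000964, 0.00170 and 0.00509 for the last 4 named). Of 16 genes for MLL complexes, menin, DOT1L and the lysine 27 demethylases (median 0.024), 1 was called higher: MLLT3, a DOT1L partner, rose from 9.25 ± 0.301 to 18.1 ± 1.84 CPM (SD, n = 3 each).

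Promoter sequences of RefSeq (250 bases before to 50 after each start) were matched for 20 of the 39 members, in 27 windows, with more than 1 for HOXA3 and HOXA10. None of the 5 motifs searched on both strands was found in the HOXA11 window upstream of its start. CACGTG, the E-box that MITF family factors bind, occurred in 9 of the 27 windows (33.3%), of HOXA3, HOXA4, HOXA7, HOXA9, HOXD1, HOXD3, HOXD10, HOXD11 and HOXD13, against 7.26% of the 35116 windows of all genes. TGANTCA, the AP-1 motif, occurred in 0 of 27, against 7.71%. TGATNNAT, bound by PBX and HOX pairs, occurred in 11.1% against 7.40%, TAATTA, a homeodomain core, in 7.4% against 4.84%, and the direct repeat of AGGTCA with 5 bases between in 0 windows against 0.0057%. Genes with several starts count more than once, so these shares are descriptions. The median ratio of observed to expected CpG was 0.85 in the HOX windows and 0.58 in all windows.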

How the data were processed

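RNA-seq libraries of SK-MEL-28 cells (3 labelled EV, 3 labelled HDAC8) were grouped by their titles. The deposited values are estimated counts for each Ensembl gene, not normalized, which the Methods and the submitters' processing notes attribute to Trimmomatic, STAR, RSEM and GRCh38; the annotation release is not given in the sources used here. The labels and the Methods name different RNA and library kits. A second deposited table, of the authors' own fold changes and p-values, was not used. All 6 sample columns were used.

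Counts were rounded, since RSEM splits reads between genes, then analysed with edgeR 4.0.16 under R 4.3.3: low-count genes were dropped by filterByExpr, libraries were scaled by TMM, and 16195 genes were fitted by glmQLFit and glmQLFTest with the group as the one term. A call needed a Benjamini-Hochberg adjusted p under 0.05 and a log2 fold change of 0.58 or more in size. The SE was taken as the size of the log2 fold change over the square root of its F statistic. Alternatives were DESeq2 1.42.0, upper-quartile scaling, no filter and a 10-count filter, other fold thresholds, the replicate number as a block and each library left out. On simulated counts for 15864 genes, edgeR recovered 80 of 100 genes changed by 1 on the log2 scale and 98 of 100 changed by 2, with 7 false calls. The changed genes were drawn from those averaging at least 1 CPM. Recovery was therefore not measured for tested members below that level, such as HOXD1.

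GENCODE 44 (GRCh38) gave exon lengths and positions for the 56558 genes whose identifiers matched. Named genes are the members and listed genes called, the most abundant members, those whose call changed under an alternative, HDAC8, and members at the edge of the filter; other genes were named after their values were seen. The members and lists were chosen with earlier results of these data known. Results for a few of these genes are not reported here.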

Additional observations from a re-analysis of the deposited data

How the results depend on the processing

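HOXA11 was called in 11 of 11 alternative fits and HOXA11-AS in 10 of 10 (it has no value under the 10-count filter), with log2 fold changes from 1.76 to 2.13 and from 2.04 to 2.86. The count of members called higher fell from 2 to 1 with the replicate block, which left HOXA11 alone, and ranged from 1 to 2 when 1 library was left out; HOXC8 was called in 7 of 11 alternatives. With no fold threshold 1 member was lower (HOXB4), and over all genes 1790 were higher and 1891 lower; with a log2 fold change of at least 1 these were 391 and 309. The replicate block gave 601 higher and 497 lower genes over all. Same-numbered libraries did not deviate together over the genes taken as a whole (correlations across genes of -0.057, -0.125 and -0.0508). Such correlations could miss a shared preparation that affects few genes, so it is not known whether same-numbered libraries share more than a number. The median of the members ranged from 0.10 to 0.32, and each cluster sum kept its direction under other scalings and without any 1 library. Depth limits the members under about 20 counts per library, and the cause of the lost calls was not tested.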

Other observations

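HOXA2 was at 0.418, 0.768 and 0.529 CPM in the EV libraries and at 0.645, 0.543 and 1.94 CPM in the HDAC8 libraries, with HDAC8 replicate 3 above the other libraries.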
